A study of Mus musculus with 4 samples.

Results

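The 33 genes described here mark the non-parenchymal cells that line and support the hepatic sinusoid: 17 sinusoidal endothelial markers (Stab1 to Mmrn2) and 16 stellate cell markers and extracellular matrix genes (Col1a1 to Lox). They were chosen by symbol, and each was read from 1 annotated probe set, the brightest on average over the 4 arrays, so that they were 33 of 22180 genes measured. Of these, 31 had a mean log2 value above the filter on dim probe sets (3.47), among 13308 genes in all, and Timp1 and Lox did not. Levels are log2 expression values, a difference is one array's log2 value minus another's, and a difference of at least 0.32 on the log2 scale was used to count the larger ones.

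The study used whole livers of C57Bl6 mice aged 16 weeks, on 4 Affymetrix arrays with 1 array per group. The groups were LKO mice on high-fat diet, WT mice on high-fat diet, LKO mice on control diet and WT mice on control diet, the high-fat diet holding 60% and the control diet 9.4% fat. LKO mice carried ALB Cre with MyD88 lox/lox, and WT mice carried MyD88 lox/lox without Cre, so the floxed allele was present in every group. Each array held pooled RNA of 4 to 5 mice that had been selected for RNA quality. The albumin promoter that drives Cre is active in hepatocytes, so endothelial and stellate cells are not its target.

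Sinusoidal endothelial cells are fenestrated, lack an organised basement membrane and clear waste molecules from portal blood through scavenger and Fc receptors. Stellate cells sit in the space between this endothelium and the hepatocytes, store vitamin A as retinyl esters, and on injury can turn into contractile cells that deposit fibrillar collagen. Toll-like and interleukin-1 receptors signal through the adaptor MyD88. The 4 arrays allow the diet to be compared within each genotype and the genotype within each diet.

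A single pooled array per group gave no replicate, so no difference between 2 arrays has an error or a test. The only fit across arrays, limma with genotype and diet as additive terms, had 1 residual degree of freedom, the diet by genotype difference. A gene whose diet difference was unlike in the genotypes thus had a larger error. The fit took its errors from that difference, with eBayes sharing them across genes. It holds no measure of the spread between arrays of a group or between mice. It called 0 of 13308 genes (0.0%) for diet and 0 of 13308 (0.0%) for genotype after Benjamini-Hochberg adjustment. At an unadjusted p under 0.05, limma had 1238 genes for diet and 567 for genotype, where 665 would be reached by chance. None of the 31 markers above the filter was called, and 3 were under an unadjusted p of 0.05 for diet (Stab1, Col1a1, Acta2) and 3 for genotype (Lyve1, Acta2, Lrat). Array medians lay between 3.53 and 3.56, and Pearson's r between pairs of arrays, across genes, between 0.985 and 0.990. Myd88 had log2 values of 6.23 on the LKO high-fat, 6.44 on the WT high-fat, 5.91 on the LKO control and 6.10 on the WT control array, lower in LKO by log2 differences of -0.21 on high-fat and -0.19 on control diet. The part of the gene that the Myd88 probe set covers was not checked against the deleted part.

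In WT livers most endothelial markers were lower on high-fat diet, while in LKO livers the count depended on the scaling, and the difference between the genotypes was not tested. In WT, 14 of 17 were lower on high-fat than on control diet, with a median log2 difference of -0.22, beside 55.0% of all genes above the filter and an all-gene median of -0.03. In LKO, 8 of 17 were lower (47.7% of all genes), with a median of 0.03, but 10 of 17 after loess scaling, with a median of -0.0046. In WT, 5 of 17 were lower by at least 0.32 (Stab1, Cdh5, Tie1, Oit3 and Bmp2), beside 10.9% of all genes, and 0 were that much higher, beside 7.53%. In LKO, Stab1 was the 1 of 17 lower by at least 0.32 (8.59% of all genes), and Lyve1 the 1 of 17 at least that much higher (11.3%). These arrays measured bulk tissue, in which fewer cells of a type and less RNA per cell cannot be told apart.

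Both high-fat arrays lay below both control arrays for 8 of 17 endothelial markers, namely Stab1, Stab2, Clec4g, Kdr, Tie1, Eng, Dnase1l3 and Bmp2, beside 21.2% of all genes. Both lay above them for 2 of 17, Fcgr2b and Pecam1, beside 19.1%. The diet difference had the same sign in LKO and WT livers for 11 of 17, beside 55.1% of all genes. The promoter windows of 4 of these 8 genes are shown because they had the largest mean diet difference among the 8, and so were picked after their values were seen. Each window runs from 250 bases before to 50 after the annotated start, on RefSeq's GRCm38.p6 assembly. The capitals mark the hexamer AGGAAG or its reverse complement CTTCCT, a form of the site bound by ETS factors, a family that works in endothelial gene control. Other forms of that site were neither marked nor counted.
Stab1 promoter, chr14:31168592-31168891, minus strand: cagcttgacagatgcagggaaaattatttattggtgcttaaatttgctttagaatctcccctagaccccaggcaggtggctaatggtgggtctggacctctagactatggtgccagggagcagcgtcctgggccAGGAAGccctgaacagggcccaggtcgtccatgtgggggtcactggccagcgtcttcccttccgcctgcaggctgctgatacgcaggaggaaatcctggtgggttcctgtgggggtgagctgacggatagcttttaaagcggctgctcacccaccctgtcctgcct
Stab2 promoter, chr10:87007893-87008192, minus strand: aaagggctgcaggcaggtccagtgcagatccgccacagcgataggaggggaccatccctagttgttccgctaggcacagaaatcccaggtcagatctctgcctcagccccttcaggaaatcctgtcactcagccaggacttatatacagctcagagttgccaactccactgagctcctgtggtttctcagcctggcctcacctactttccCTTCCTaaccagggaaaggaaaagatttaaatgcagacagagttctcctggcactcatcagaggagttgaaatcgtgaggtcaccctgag
Eng promoter, chr2:32646345-32646644, plus strand: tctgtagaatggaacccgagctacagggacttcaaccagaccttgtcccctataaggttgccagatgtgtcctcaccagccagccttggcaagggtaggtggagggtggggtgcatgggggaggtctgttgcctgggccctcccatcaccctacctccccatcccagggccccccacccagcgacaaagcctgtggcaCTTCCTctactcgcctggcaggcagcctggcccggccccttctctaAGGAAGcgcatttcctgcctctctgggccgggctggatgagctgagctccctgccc
Tie1 promoter, chr4:118489800-118490099, minus strand: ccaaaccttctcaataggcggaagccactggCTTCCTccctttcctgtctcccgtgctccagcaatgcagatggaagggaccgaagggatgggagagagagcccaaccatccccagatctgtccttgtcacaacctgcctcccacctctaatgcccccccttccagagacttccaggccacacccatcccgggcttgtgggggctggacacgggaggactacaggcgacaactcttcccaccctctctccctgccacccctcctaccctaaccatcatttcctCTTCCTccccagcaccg
The hexamer stood at -116 in Stab1 and at -40 in Stab2, counted to its first base from the start. It stood at -52 and -6 in Eng, and at -219 and 34 in Tie1. On either strand it was present in 6 of the 9 endothelial windows at hand (Clec4g, Ehd3, Eng, Stab1, Stab2 and Tie1), beside 35.4% of 32851 promoter windows of the same length. A match of 6 letters is a description of the window and shows no binding.

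The scavenger receptors with the clearest diet difference were the stabilins, which take up modified proteins and hyaluronan from the blood. Stab1 had log2 values of 5.95 on the LKO high-fat and 6.04 on the WT high-fat array, against 6.34 on the LKO control and 6.43 on the WT control array. Both high-fat arrays lay below both controls, and the difference was -0.39 in LKO and -0.40 in WT livers. Its fitted diet effect in limma was -0.39 (SE 0.12, adjusted p = 0.43). Stab2 had 7.86 on the LKO high-fat and 7.96 on the WT high-fat array, against 8.13 on the LKO control and 8.19 on the WT control array. Here too both high-fat arrays were lower, by -0.26 in LKO and -0.24 in WT livers. Both stabilins were lower in LKO than in WT on each diet by less than 0.1 on the log2 scale.

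Lyve1, a hyaluronan receptor shared by sinusoidal and lymphatic endothelium, ran the other way. It had 7.71 on the LKO high-fat, 7.23 on the WT high-fat, 7.36 on the LKO control and 7.02 on the WT control array. Both LKO arrays lay above both WT arrays, and each high-fat array lay above the control array of its genotype. The genotype difference was 0.47 on high-fat and 0.33 on control diet, and limma's genotype effect was 0.40 (SE 0.12, adjusted p = 0.98). Lyve1 was the endothelial marker with the widest range over the 4 arrays.

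Clec4g, the lectin LSECtin, had 9.23 on the LKO high-fat, 9.07 on the WT high-fat, 9.28 on the LKO control and 9.25 on the WT control array. Its WT high-fat array was the low one, with a diet difference of -0.18 in WT and -0.05 in LKO livers. Fcgr2b, the inhibitory IgG receptor that clears immune complexes in the sinusoid, had 9.70 on the LKO high-fat and 9.67 on the WT high-fat array, against 9.60 on the LKO control and 9.53 on the WT control array. It was higher on both high-fat arrays by small amounts, 0.10 in LKO and 0.14 in WT livers. Gpr182, an atypical chemokine receptor of the sinusoid, had 5.93 on the LKO high-fat, 5.91 on the WT high-fat, 5.72 on the LKO control and 6.02 on the WT control array. The LKO control array was its lowest, and the high-fat arrays did not separate from the controls. Among the trafficking and secreted proteins, Ehd3, an ATPase of endocytic recycling, had 8.86 on the LKO high-fat, 8.96 on the WT high-fat, 8.83 on the LKO control and 9.09 on the WT control array. It was lower on both LKO arrays than on both WT arrays. Dnase1l3, a secreted nuclease, had 7.71 on the LKO high-fat and 7.69 on the WT high-fat array, against 7.79 on the LKO control and 7.89 on the WT control array. Both high-fat arrays were lower, by -0.07 in LKO and -0.20 in WT livers.

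Among the junction and growth receptors, Cdh5, Tek, Tie1, Kdr and Eng had their lowest value on the WT high-fat array, as did 28.1% of all genes. Eng had nearly the same value on the LKO high-fat array. The adhesion molecule Pecam1, by contrast, was lowest on the WT control array. Cdh5, the VE-cadherin of endothelial junctions, had 8.57 on the LKO high-fat, 8.38 on the WT high-fat, 8.54 on the LKO control and 8.80 on the WT control array. The WT arrays were its lowest and highest, so the diet difference was 0.04 in LKO and -0.42 in WT livers. Tek, the angiopoietin receptor Tie2, had 6.31 on the LKO high-fat, 6.09 on the WT high-fat, 6.11 on the LKO control and 6.38 on the WT control array. Its diet difference was 0.20 in LKO and -0.28 in WT livers, opposite in sign. Tie1, the receptor-like partner of Tie2, had 4.35 on the LKO high-fat and 4.14 on the WT high-fat array, against 4.52 on the LKO control and 4.61 on the WT control array. Both high-fat arrays were lower, by -0.17 in LKO and -0.47 in WT livers, with a limma diet effect of -0.32 (SE 0.14, adjusted p = 0.544).

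Kdr, the main receptor of VEGF-A, had 8.27 on the LKO high-fat and 8.21 on the WT high-fat array, against 8.36 on the LKO control and 8.43 on the WT control array. Eng, a co-receptor of BMP and TGF-beta ligands, had 8.24 on the LKO high-fat and 8.24 on the WT high-fat array, against 8.44 on the LKO control and 8.52 on the WT control array. Both receptors were lower on both high-fat arrays, Kdr by -0.09 in LKO and -0.22 in WT livers and Eng by -0.20 in LKO and -0.29 in WT livers. Bmp2, a ligand by which endothelial cells induce hepcidin in hepatocytes, had 4.63 on the LKO high-fat and 4.44 on the WT high-fat array, against 4.68 on the LKO control and 4.76 on the WT control array. It was lower by -0.05 in LKO and by -0.33 in WT livers. Pecam1, the adhesion molecule CD31, was higher on high-fat diet instead, with 6.03 on the LKO high-fat and 5.93 on the WT high-fat array, against 5.92 on the LKO control and 5.80 on the WT control array. Oit3 had 7.53 on the LKO high-fat, 7.30 on the WT high-fat, 7.45 on the LKO control and 7.64 on the WT control array, and its diet difference was 0.08 in LKO and -0.34 in WT livers. Mmrn2, a matrix glycoprotein of endothelium, had 5.52 on the LKO high-fat, 5.59 on the WT high-fat, 5.37 on the LKO control and 5.77 on the WT control array. Both LKO arrays were below both WT arrays for Mmrn2, by -0.07 on high-fat and -0.41 on control diet.

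The WT control array held the highest value of 13 of 17 endothelial markers, beside 28.0% of all genes, and the WT high-fat array the lowest value of 9 of 17, beside 28.1%. The diet comparison in WT and the genotype comparison on control diet share the WT control array.

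**Figure D1:**
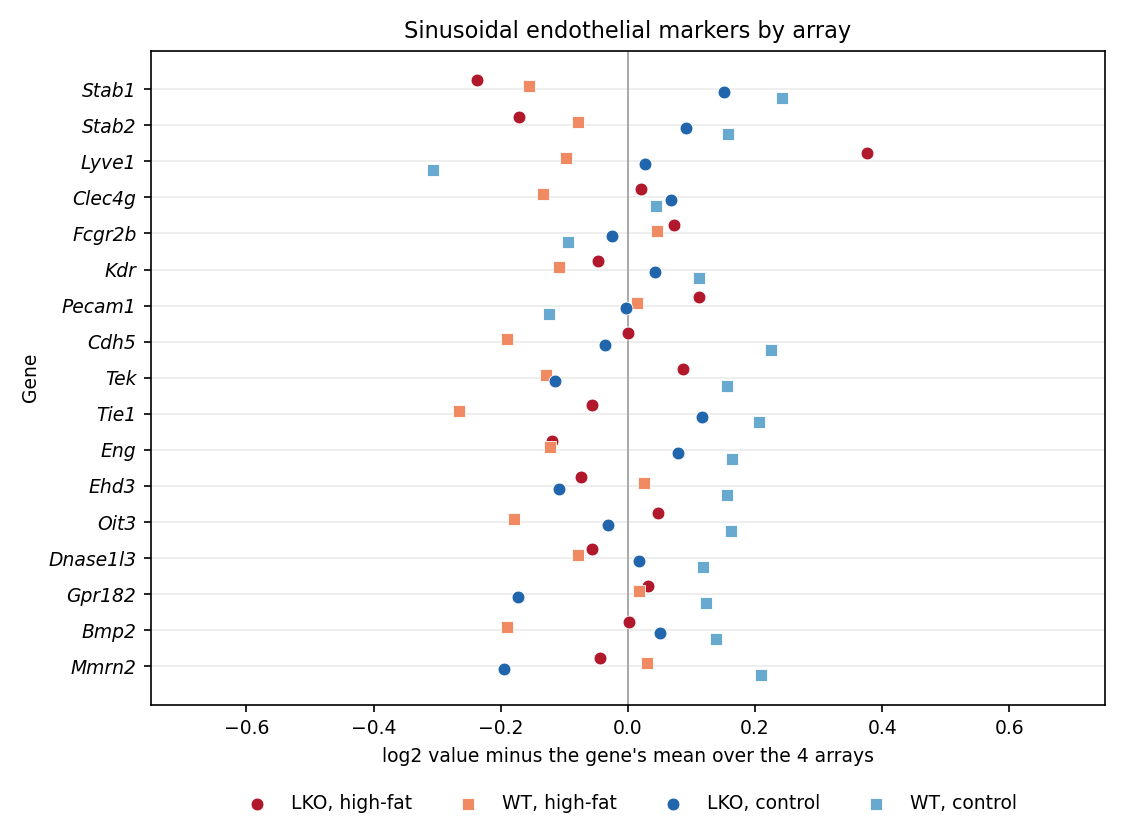
Values of the 17 endothelial markers on the 4 arrays, 1 point per pooled array, as the log2 value minus the gene's mean over the arrays. The WT control array is the highest point for 13 of 17 genes and the WT high-fat array the lowest for 9 of 17, and Lyve1 spreads most.

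Between genotypes, 4 of 17 endothelial markers were lower in LKO than in WT on high-fat diet (45.9% of all genes) and 13 of 17 were lower on control diet (53.3%). The median difference was 0.06 on high-fat and -0.09 on control diet, beside all-gene medians of 0.02 on high-fat and -0.02 on control diet. After loess scaling the number lower on high-fat diet was 8, so the direction on that diet depends on the scaling. On high-fat diet 0 of 17 were lower by at least 0.32 (6.79% of all genes) and Lyve1 was at least that much higher (11.2%). On control diet Mmrn2 was lower by at least 0.32 (6.56%) and Lyve1 at least that much higher (4.98%). Across both diets 2 of 17 markers, Ehd3 and Mmrn2, were below WT on both LKO arrays (14.1% of all genes), and Lyve1 was above WT on both (15.1%). The sign of the genotype difference was the same on both diets for 8 of 17, beside 49.9%.

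The stellate and matrix genes showed no shared direction with diet in WT livers. In WT, 10 of 16 were lower on high-fat diet (55.0% of all genes), with a median difference of -0.03 beside an all-gene median of -0.03. The number was 6 after loess scaling and 5 after centring each array on its median, where the median was 0.03 with loess and 0.02 with centring. In LKO, 4 of 16 were lower (47.7% of all genes), 11 were higher and Col4a1 was equal. The LKO median was 0.14 beside an all-gene median of 0.01. The LKO high-fat array held the highest value of 9 of 16 of these genes, beside 31.2% of all genes. In LKO, 1 of 16, Col1a1, was lower on high-fat diet by at least 0.32 (8.59% of all genes), and 3 of 16, Acta2, Lrat and Hgf, were at least that much higher (11.3%). In WT, 2 of 16, Col1a1 and Pdgfra, were lower by at least 0.32 (10.9%), and 2 of 16, Acta2 and Lox, at least that much higher (7.53%). Of these Lox lay below the filter, while the shares cover genes above it. Both high-fat arrays were below both controls for 1 of 16, Col1a1, beside 21.2% of all genes, and above both for 2 of 16, Col1a2 and Acta2, beside 19.1%. Neither share of these genes exceeded that of all genes.

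Of the genes that mark contractile stellate cells, Acta2, smooth muscle actin, had 6.22 on the LKO high-fat and 6.64 on the WT high-fat array, against 5.86 on the LKO control and 6.09 on the WT control array. Both high-fat arrays lay above both controls, with a difference of 0.36 in LKO and 0.55 in WT livers. The fitted diet effect in limma was 0.46 (SE 0.13, adjusted p = 0.405). Acta2 was lower in LKO on each diet, by -0.41 on high-fat and -0.23 on control diet, but the LKO high-fat array still exceeded the WT control array. Smooth muscle actin is also made by vascular smooth muscle, and other actin and muscle transcripts were read beside it.

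Skeletal muscle markers were high on the WT high-fat array, where all 12 measured had their highest value. Of the 12, 7 lay above the filter, and the diet difference in WT livers ran between 0.06 and 1.56. Acta1, skeletal muscle actin, had 4.02 on the LKO high-fat, 5.93 on the WT high-fat, 4.28 on the LKO control and 4.37 on the WT control array. The sum of the 12 linear values was 154.0 on the LKO high-fat, 332.4 on the WT high-fat, 163.1 on the LKO control and 172.3 on the WT control array. Between diets the list's median difference was -0.05 in LKO and 0.77 in WT livers, while Acta2 was higher on high-fat diet in both. The part of skeletal muscle transcripts in the WT value of Acta2 was not tested. Among contractile genes, Cnn1, calponin, whose probe set lay below the filter, had 3.26 on the LKO high-fat, 3.84 on the WT high-fat, 3.19 on the LKO control and 3.34 on the WT control array. Myh11, smooth muscle myosin, had 4.16 on the LKO high-fat, 4.09 on the WT high-fat, 4.08 on the LKO control and 3.99 on the WT control array. Tagln, transgelin, an actin-binding protein of contractile cells, had 4.28 on the LKO high-fat, 4.10 on the WT high-fat, 4.46 on the LKO control and 4.26 on the WT control array. Cnn1 and Myh11 were thus higher and Tagln lower on high-fat diet in each genotype. Of the 11 measured genes listed for smooth muscle and portal fibroblasts, the high-fat value was above the control value for 6 and below it for 5 in LKO, and above it for 8 and below it for 3 in WT livers. The 11 genes had median diet differences of 0.02 in LKO and 0.13 in WT livers, and summed levels between 137.9 and 148.8. They include Elane, neutrophil elastase, which does not mark these cells and had diet differences of 0.08 in LKO and -0.05 in WT livers. The Acta2 promoter window is shown because Acta2 had the largest positive diet difference of the 33 genes in WT livers, and the capitals mark stretches that match the CArG box, the site bound by serum response factor, with 1 letter different.
Acta2 promoter, chr19:34255324-34255623, minus strand: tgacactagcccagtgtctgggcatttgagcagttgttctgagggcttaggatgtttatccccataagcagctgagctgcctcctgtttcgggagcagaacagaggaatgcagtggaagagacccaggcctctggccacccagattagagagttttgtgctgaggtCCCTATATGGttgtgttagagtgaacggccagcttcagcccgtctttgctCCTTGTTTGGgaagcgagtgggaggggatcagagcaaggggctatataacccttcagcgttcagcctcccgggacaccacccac
The stretches began at -84 and -34. With 1 mismatch allowed, the box was found in 9.98% of all promoter windows, in 3 of 12 windows of the stellate and matrix genes (Acta2, Col1a2 and Lrat) and in 3 of 9 endothelial windows (Eng, Kdr and Tek). The exact box was in 1.63% of all windows and in 0 of the 21 member windows, and a promoter window was at hand for 20 of 33 members.

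**Figure D2:**
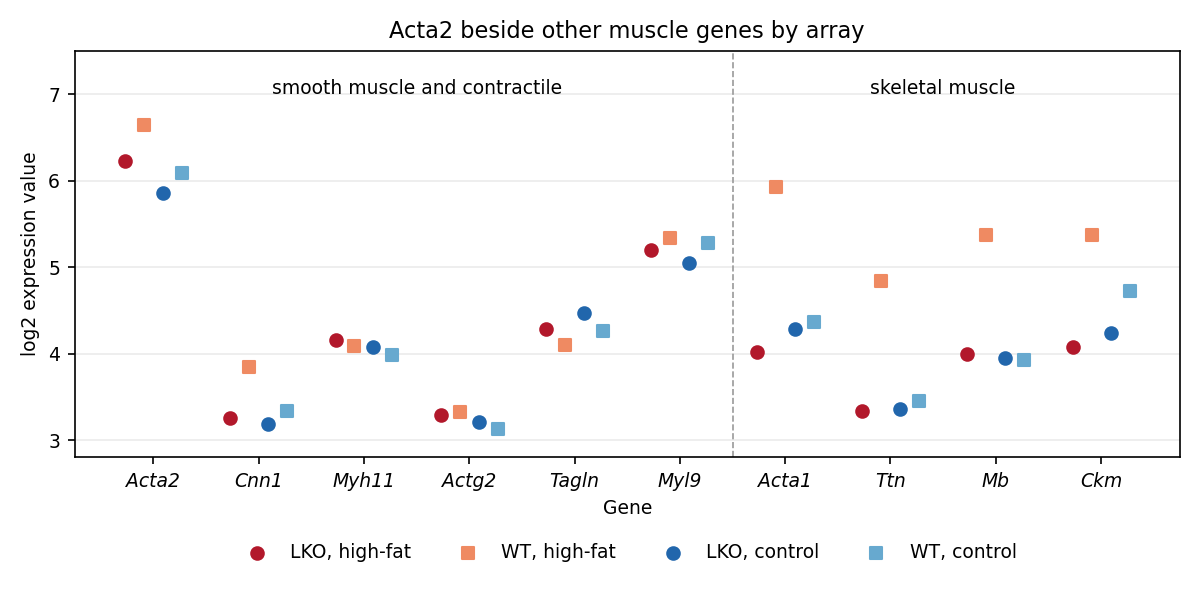
Log2 values of Acta2, other smooth muscle and contractile genes (left) and skeletal muscle genes (right), 1 point per pooled array. Acta2 is higher on both high-fat arrays, and the 4 skeletal muscle genes are highest on the WT high-fat array.

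The fibrillar collagens differed in direction. Col1a1, a chain of collagen I, had 4.31 on the LKO high-fat and 4.11 on the WT high-fat array, against 4.88 on the LKO control and 4.49 on the WT control array. Both high-fat arrays were lower, by -0.57 in LKO and -0.39 in WT livers, and limma's diet effect was -0.48 (SE 0.13, adjusted p = 0.380). Col1a2, the other chain of collagen I, had 4.41 on the LKO high-fat and 4.41 on the WT high-fat array, against 4.25 on the LKO control and 4.10 on the WT control array. It was thus higher on high-fat diet, by 0.17 in LKO and 0.31 in WT livers, opposite to Col1a1. A dimmer Col1a2 probe set, below the filter, gave diet differences of -0.16 in LKO and -0.06 in WT livers, so the sign for Col1a2 depended on the probe set. Col3a1, the chain of collagen III, had 5.07 on the LKO high-fat, 4.90 on the WT high-fat, 4.94 on the LKO control and 4.76 on the WT control array. Both LKO arrays were above both WT arrays, by 0.17 on high-fat and 0.18 on control diet. Col4a1, a basement membrane collagen, had 4.27 on both high-fat arrays, 4.27 on the LKO control and 4.29 on the WT control array.

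Genes of vitamin A storage and stellate receptors followed no single pattern over the arrays. Lrat, which esterifies retinol for storage, had 7.94 on the LKO high-fat, 7.38 on the WT high-fat, 7.62 on the LKO control and 7.41 on the WT control array. Both LKO arrays exceeded both WT arrays, by 0.57 on high-fat and 0.21 on control diet. Pdgfra, a platelet-derived growth factor receptor of mesenchymal cells, had 4.50 on the LKO high-fat, 3.72 on the WT high-fat, 4.35 on the LKO control and 4.41 on the WT control array. The WT high-fat array alone was low, which gave a genotype difference of 0.78 on high-fat and -0.06 on control diet. That low value lay near the filter on dim probe sets (3.47). Pdgfrb, the other receptor of that family, had 5.04 on the LKO high-fat, 4.95 on the WT high-fat, 5.11 on the LKO control and 4.87 on the WT control array. Its LKO arrays were above its WT arrays by 0.09 on high-fat and 0.23 on control diet. Des, the filament protein desmin, lay between 3.79 and 3.90 on all arrays. Reln, the secreted glycoprotein reelin, had 7.27 on the LKO high-fat, 7.38 on the WT high-fat, 7.20 on the LKO control and 7.40 on the WT control array. It was lower on both LKO arrays than on both WT arrays.

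Of the secreted proteins, Hgf, Dcn, Lum, Tgfb1 and Timp1 had their highest value on the LKO high-fat array, as did 31.2% of all genes. They were grouped by that value. Lox and Reln, also secreted, were highest on the WT high-fat array (Lox) and the WT control array (Reln). Of the collagens, Col1a2 and Col3a1 were also highest on the LKO high-fat array, and Col1a1 and Col4a1 were not. For Tgfb1 and Timp1 the lead over the next array was small. Hgf, a growth factor for hepatocytes, had 7.28 on the LKO high-fat, 6.92 on the WT high-fat, 6.93 on the LKO control and 6.95 on the WT control array. Its other 3 arrays lay within 0.1 of each other, and the genotype difference on high-fat diet was 0.36. Dcn, the proteoglycan decorin, had 10.80 on the LKO high-fat, 10.60 on the WT high-fat, 10.63 on the LKO control and 10.64 on the WT control array. Lum, the related lumican, had 4.67 on the LKO high-fat, 4.31 on the WT high-fat, 4.44 on the LKO control and 4.50 on the WT control array. Both proteoglycans had their highest value on the LKO high-fat and their lowest on the WT high-fat array. Tgfb1, the cytokine that drives matrix synthesis in stellate cells, had 5.24 on the LKO high-fat, 5.03 on the WT high-fat, 5.19 on the LKO control and 5.17 on the WT control array. Timp1, an inhibitor of matrix metalloproteinases, had 3.25 on the LKO high-fat, 3.14 on the WT high-fat, 2.93 on the LKO control and 3.20 on the WT control array. Lox, which cross-links collagen, had 3.10 on the LKO high-fat, 3.35 on the WT high-fat, 3.27 on the LKO control and 3.02 on the WT control array. The Timp1 and Lox probe sets lay below the filter, where RMA compresses differences.

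**Figure D3:**
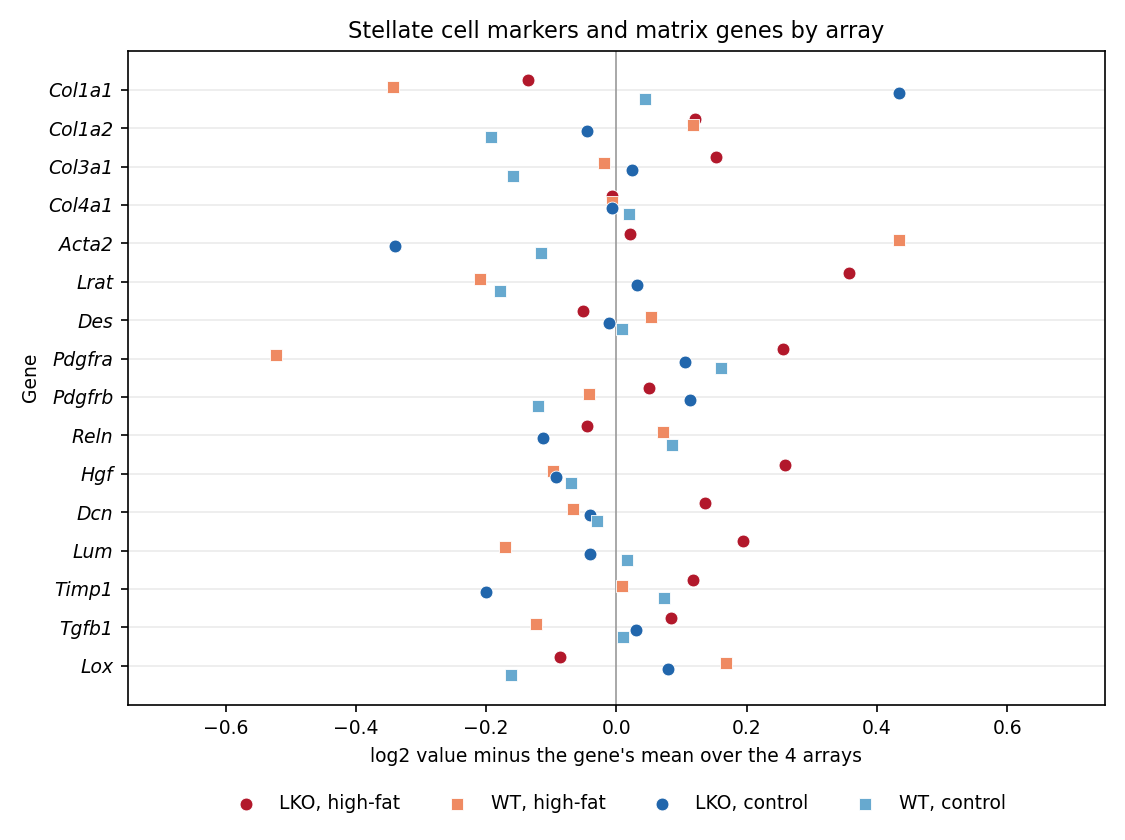
Values of the 16 stellate and matrix genes on the 4 arrays, 1 point per pooled array, as the log2 value minus the gene's mean over the arrays. Pdgfra is low on the WT high-fat array alone, and 9 of 16 genes have their highest value on the LKO high-fat array.

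Between genotypes, 4 of 16 stellate and matrix genes were lower and 11 higher in LKO on high-fat diet, beside 45.9% of all genes lower. On control diet 9 of 16 were lower, near the share of all genes (53.3%). The median was 0.14 on high-fat and -0.02 on control diet, beside all-gene medians of 0.02 on high-fat and -0.02 on control diet. After centring each array the number lower on control diet was 5 and the median 0.03, so that direction depends on the scaling. On high-fat diet the number lower was 6 after centring, with a median of 0.12. On high-fat diet 1 of 16, Acta2, was lower by at least 0.32 (6.79% of all genes), and 4 of 16, Lrat, Pdgfra, Hgf and Lum, were at least that much higher (11.2%). On control diet 1 of 16, Col1a1, was higher by at least 0.32 (4.98%), and 0 of 16 were that much lower (6.56%). Des and Reln, 2 of 16, were below WT on both LKO arrays, beside 14.1% of all genes, and Col3a1, Lrat, Pdgfrb and Tgfb1, 4 of 16, were above it on both, beside 15.1%. No member differed 2-fold in any of the 4 comparisons, while 0.609% of all genes did so with diet in LKO, 1.05% with diet in WT, 0.391% between genotypes on high-fat and 0.503% between genotypes on control diet.

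Set against the spread of all genes, few members stood out. The central 95% of diet differences ran between -0.52 and 0.57 in LKO and between -0.59 and 0.51 in WT livers, and that of genotype differences between -0.46 and 0.56 on high-fat and between -0.45 and 0.41 on control diet. Outside these ranges lay Col1a1 for diet in LKO, Acta2 and Pdgfra for diet in WT, and Lrat and Pdgfra for genotype on high-fat diet. All other member differences lay within them, so most values given above are of a size that many genes reached between these arrays.

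**Figure D4:**
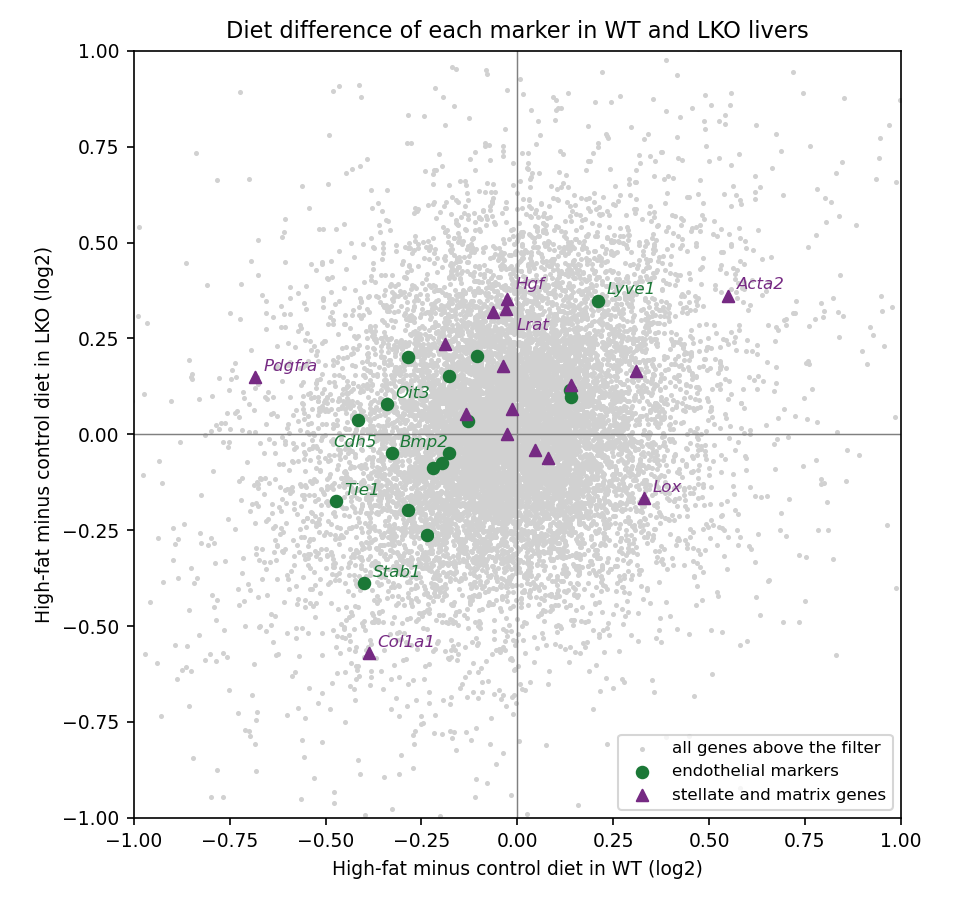
Diet difference (high-fat minus control, log2) in LKO livers on the vertical axis and in WT livers on the horizontal axis, 1 point per gene, with both axes shown within 1 log2 unit. Stab1 and Col1a1 lie low on both axes and Acta2 high on both, and Pdgfra lies far to the left with a small positive LKO difference.

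Other genes of the same cells were read from lists. Beside the counts below, 47.7% of all genes above the filter were lower on high-fat diet in LKO and 55.0% in WT livers. Of 30 further endothelial genes, 13 were lower on high-fat diet in LKO and 20 in WT livers, with median differences of 0.01 in LKO and -0.07 in WT, and limma called none. Maf, a transcription factor of sinusoidal endothelium, had 6.97 on the LKO high-fat and 6.93 on the WT high-fat array, against 6.66 on the LKO control and 6.58 on the WT control array. Nrp1, a VEGF co-receptor, had 8.50 on the LKO high-fat, 8.85 on the WT high-fat, 8.66 on the LKO control and 8.24 on the WT control array. Maf was higher on both high-fat arrays, and Nrp1 was higher on high-fat diet in WT livers and lower in LKO livers. Maf and Nrp1 do not stand for their list, most of which was lower on high-fat diet in WT livers. Both high-fat arrays lay below both control arrays for 6 of the 30 genes (21.2% of all genes) and above them for 4 (19.1%). Among 24 angiocrine ligands and their partners, 10 were lower and 14 higher on high-fat diet in LKO, and 11 lower and 13 higher in WT livers. Vegfb, a VEGF family ligand, had 6.11 on the LKO high-fat and 6.33 on the WT high-fat array, against 6.84 on the LKO control and 7.26 on the WT control array. That was lower on high-fat diet by -0.73 in LKO and -0.93 in WT livers, with a limma diet effect of -0.83 (SE 0.13, adjusted p = 0.217). Its adjusted p in limma was 0.039 after loess scaling and between 0.099 and 0.298 under the other settings tried. Id3, a BMP target gene, had 4.91 on the LKO high-fat and 5.01 on the WT high-fat array, against 5.42 on the LKO control and 5.78 on the WT control array. It too was lower on both high-fat arrays, and limma did not call it (adjusted p = 0.295).

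Of 9 genes linked to a continuous capillary phenotype, 4 were lower on high-fat diet in LKO and 3 in WT livers. Cav1, caveolin, had 3.82 on the LKO high-fat, 3.99 on the WT high-fat, 3.65 on the LKO control and 3.32 on the WT control array, values near the filter (3.47). Of 16 further stellate genes, 9 were lower on high-fat diet in LKO and 10 in WT livers, and of 23 further matrix and cross-linking genes, 13 in LKO and 14 in WT. The stellate list includes Plin2, a lipid droplet protein not confined to stellate cells, with diet differences of -0.18 in LKO and -0.60 in WT livers. Fn1, fibronectin, which hepatocytes also make, had 11.57 on the LKO high-fat, 11.90 on the WT high-fat, 11.99 on the LKO control and 11.79 on the WT control array. Its LKO high-fat array was the low one. Of 11 matrix proteases and inhibitors, 4 were lower and 7 higher on high-fat diet in LKO, and 5 lower and 6 higher in WT livers. Among them Mmp14, a membrane-bound metalloproteinase, had 6.57 on the LKO high-fat and 6.51 on the WT high-fat array, against 7.14 on the LKO control and 7.28 on the WT control array. Of 23 genes of TGF-beta and PDGF signalling, 9 were lower and 14 higher on high-fat diet in LKO, and 12 lower and 11 higher in WT livers. Among them Ski, a repressor of SMAD activity, had 5.32 on the LKO high-fat and 5.15 on the WT high-fat array, against 5.86 on the LKO control and 5.73 on the WT control array. Both Mmp14 and Ski were lower on both high-fat arrays, with limma adjusted p-values of 0.277 for Mmp14 and 0.320 for Ski. Smad3, a TGF-beta signal carrier, had 3.82 on the LKO high-fat, 4.38 on the WT high-fat, 4.09 on the LKO control and 4.45 on the WT control array. It was lower on both LKO arrays.

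Markers of other cells also differed between the arrays. Of 16 Kupffer cell and macrophage markers, 13 were lower on high-fat diet in LKO and 14 in WT livers, with medians of -0.11 in LKO and -0.29 in WT, beside endothelial medians of 0.03 in LKO and -0.22 in WT. Their summed linear level was 3414.4 on the LKO high-fat, 3366.8 on the WT high-fat, 3822.6 on the LKO control and 4067.0 on the WT control array. The summed level of the 17 endothelial markers was 4079.9 on the LKO high-fat, 3888.7 on the WT high-fat, 4087.8 on the LKO control and 4306.4 on the WT control array. Both sums were highest on the WT control and lowest on the WT high-fat array. The 14 hepatocyte markers had median diet differences of -0.05 in LKO and -0.03 in WT livers. The 13 exocrine pancreas markers were higher in every one of the 4 comparisons, with median diet differences of 1.04 in LKO and 2.19 in WT livers and median genotype differences of 1.17 on high-fat and 2.35 on control diet. The part of these transcripts in the endothelial and stellate differences was not tested.

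**Figure D5:**
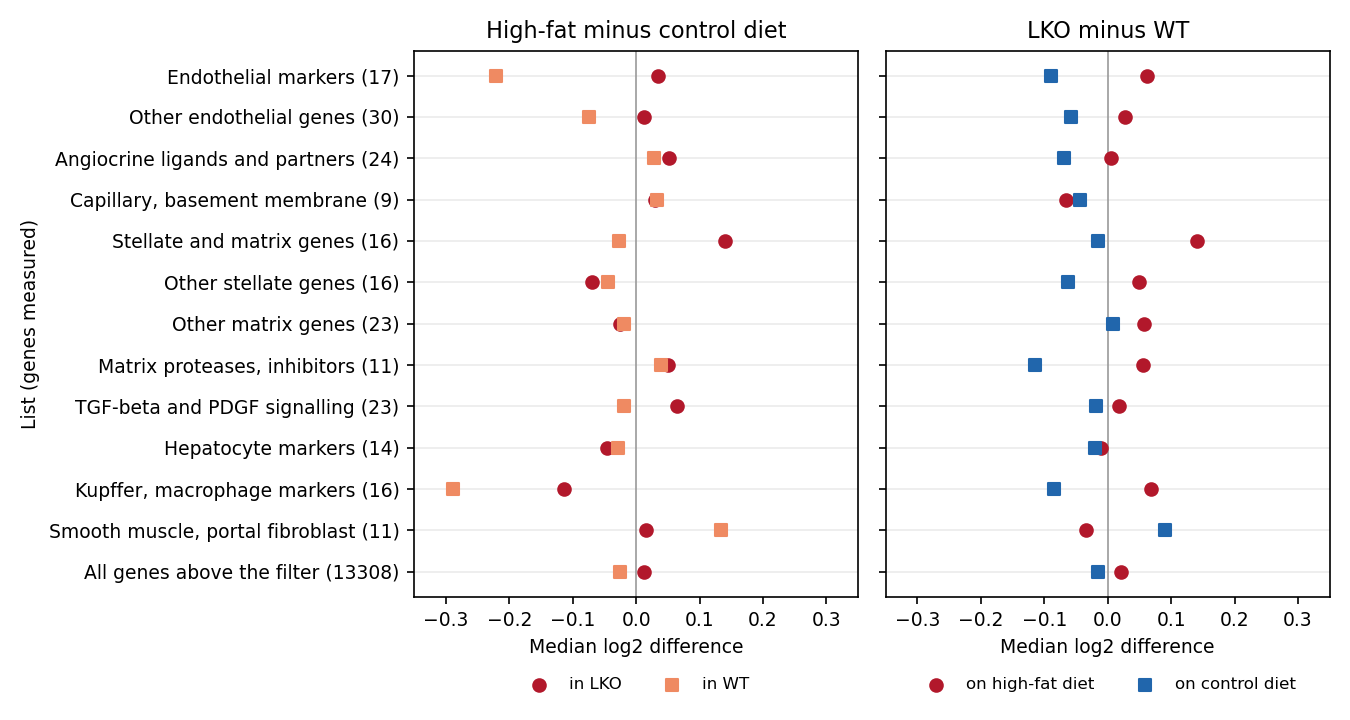
Median log2 difference of each gene list, with the number of genes measured in brackets. The left panel gives high-fat minus control diet in LKO and in WT livers, and the right panel LKO minus WT on high-fat and on control diet. The endothelial and Kupffer lists lie furthest left for diet in WT.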

How the data were processed

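Liver RNA pools were hybridised to 4 Affymetrix arrays, 1 per group. The deposited table holds log2 values for which the submitters' processing notes name Affymetrix Expression Console and RMA, with no version in the sources used here. RMA subtracts background, equalises the arrays' distributions and combines the probes of a set, and differences of dim sets are compressed. Detection calls were not used, so how far a probe set stood above background is unknown. The number of arrays limits the precision.

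Of 41345 probe sets, 23521 had 1 gene symbol in the platform annotation, 1814 had several and 16010 none, and only the first were named. The probe set with the highest mean stood for each of 22180 genes. The 40th percentile of the mean log2 value (3.47) was the filter for shares over all genes and for limma 3.58.1 in R 4.3.3 (additive genotype and diet, eBayes, Benjamini-Hochberg at 0.05). Python 3.11.15, pandas 2.3.3, NumPy 2.4.6 and matplotlib 3.10.9 did the rest. Groups came from the labels. Alternatives were loess scaling, centring, the mean of probe sets, the filter and the eBayes prior.

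The members and lists were chosen with earlier results of these data known. All members could be named, with Myd88 and up to 4 genes per pathway list with the largest mean diet or genotype difference. Acta1, Cnn1, Myh11, Tagln and the other muscle genes plotted beside Acta2 were chosen after their values were seen. Lists of lymphocytes, cholangiocytes, mesothelium and adipose tissue had median diet differences of -0.03, -0.02, 0.03 and 0.05 in LKO and 0.08, 0.08, 0.15 and 0.09 in WT livers. Of the genes measured in these lists, 6 of 14, 4 of 6, 6 of 7 and 6 of 8 lay above the filter. In the adipose list Car3 was at 12.30 or more on every array, while Adipoq and Lep lay below the filter. These medians may thus not describe the cell types named.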

Additional observations from a re-analysis of the deposited data

Results flagged for a closer look

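For 10 of 33 markers the diet difference had opposite signs in LKO and WT livers and the differences were at least 0.32 apart on the log2 scale, as they were for 21.5% of all genes above the filter. The 10 include Timp1 and Lox, which lay below the filter, so the count and the share do not cover like sets. With 1 pooled array per group, the difference between the genotypes was not tested for any of them. It is given as the diet difference in LKO minus that in WT, on the log2 scale. Among endothelial markers it was 0.49 for Tek, 0.45 for Cdh5, 0.42 for Oit3 and 0.33 for Mmrn2, each higher on high-fat diet in LKO and lower in WT livers. Among stellate and matrix genes it was 0.83 for Pdgfra, 0.42 for Lum, 0.38 for Hgf and 0.36 for Lrat, with the same signs. For the dim probe sets it was 0.38 for Timp1 and -0.50 for Lox, which was lower on high-fat diet in LKO and higher in WT livers.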

How the results depend on the processing

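No paired analysis was possible because each group had 1 pooled array and the labels give no replicate numbers, and for the same reason no array was left out. Of 82 recomputed medians and counts, 75 stayed within the limits set (0.1 log2 for a median, 1.5 times for a count) and 7 counts moved further. Many could not move, since all 17 endothelial markers had 1 probe set and lay above the filter. The mean of probe sets and the filter on members thus left their values unchanged. Centring shifts a median by at most 0.0496, so it could move only counts past the limits. With loess 16 of 20 stayed within the limits, and with centring 17 of 20. Within those limits, 5 medians near 0 changed sign: the endothelial diet median in LKO (0.03 as deposited, -0.0046 with loess), the stellate and matrix diet median in WT (-0.03 as deposited, 0.03 with loess, 0.02 with centring) and their genotype median on control diet (-0.02 as deposited, 0.0030 with loess, 0.03 with centring). After loess scaling, 8 endothelial markers were lower in LKO on high-fat diet (4 as deposited), 6 stellate and matrix genes were lower on high-fat diet in WT (10 as deposited), and limma called 70 genes for diet and 3 for genotype (0 and 0 as deposited). After centring each array on its median, 5 stellate and matrix genes were lower on high-fat diet in WT, 5 were lower in LKO on control diet (9 as deposited), and limma called 5 genes for diet. The cause was not tested. No member was among the genes called in any setting. The 24 member differences of at least 0.32 kept their sign and moved by no more than 0.1 under loess. The mean of probe sets could not change them, since each of these genes had 1 probe set. Centring, chosen after seeing the data, shifts all genes of a comparison alike, by at most 0.0496. It could thus neither reverse these differences nor move them past 0.1. Scaling moved the all-gene median by at most 0.0496.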

Other observations

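The Col4a1 probe set had the same value, to 4 decimals, on 3 arrays (LKO high-fat, WT high-fat and LKO control). Of all genes above the filter, 2 had an equal value on 3 or more arrays, which is 0.015%.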
